A study of Mus musculus with 3 samples.

Results

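The 10 genes described here encode proteins by which macrophages are recognised and through which they sense their surroundings: Csf1r, Cx3cr1, Trem2, Mrc1, Adgre1, Lyz2, Cd68, Aif1, Laptm5 and Clec7a. They are 10 of the 27886 genes listed over the 3 count tables of the series. All 10 were listed in the tables of cardiac precursor cell cultures (CPCC) and of cardiac bodies (CB), and 4 of them, Csf1r, Mrc1, Cd68 and Laptm5, in the table of mouse embryonic stem cells (mESC). The genes were chosen by their counts in CPCC and CB cells seen in an earlier look at the same tables, so their levels and their joint presence in CPCC cells are given as a description with no test. A gene is listed in a table only if its value reached at least 1 in some cell, and genes left out of a table have no value for that culture.

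Single cells came from male F1 stem cells of C57BL/6J and CAST/EiJ mice, kept as mESC in 2i medium with LIF. CPCC came from embryoid bodies that were grown in medium with ascorbic acid and then dissociated. Their cells were passaged in enrichment medium with EGF and Fgf2 and taken at the fourth passage. CB were floating, beating bodies picked by hand from cultures kept in the ascorbic acid medium. Cells were caught on Fluidigm C1 chips, full-length cDNA was made with SMART-Seq v4, and the libraries were sequenced in pools. The 3 groups share the F1 genotype, and no treatment differs apart from the culture itself. The labels give 1 sample per culture, so no test between cultures was possible. The tables hold 215 mESC in 3 pools, CPCC in pools of 79 and 96 cells, and 232 CB cells in 3 pools. The mESC label reads triplicate, and the study's methods describe clones from separate blastocysts as replicates, but no label or column says which clone or dish a pool or cell comes from, so pools were not used as replicates.

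Macrophages take up and digest particles and dying cells, and those of many tissues descend from embryonic progenitors. Their survival depends on Csf1r, the receptor for the growth factors Csf1 and Il34. Cx3cr1 binds the chemokine fractalkine (Cx3cl1), Trem2 binds lipids and signals through the adaptor Tyrobp, Mrc1 is the mannose receptor CD206, and Adgre1 is the antigen F4/80. These 5 were taken as members often used for tissue-resident macrophages. Lyz2 encodes lysozyme M, which is also made by monocytes and neutrophils, and Clec7a encodes Dectin-1, a receptor for fungal glucans. These were taken as the inflammatory members, a loose name, since resident macrophages can carry both. Cd68 is a lysosomal glycoprotein, Aif1 encodes Iba1, an actin-binding protein, and Laptm5 is a lysosomal membrane protein of blood cells. The last 3 were taken as general myeloid members.

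Spi1 encodes PU.1, an ETS factor needed for macrophage development, and its counts are described beside those of the members below. The letters GAGGAA, part of the site that ETS factors such as PU.1 bind, were therefore looked for on both strands in RefSeq promoter windows of build GRCm38.p6, each from 250 bases before to 50 bases after a start. Windows were given for 8 of the 10 genes. Of these 8 genes, 6 held the letters, Aif1, Cd68, Clec7a, Laptm5, Mrc1 and Trem2, while the windows of Cx3cr1 and Lyz2 did not. Over all genes with a window, 31.3% held them. The 4 windows shown are Mrc1, which held the most matches (3), Trem2 (1), Cd68 (2, with 1 on each strand) and Lyz2 (0), with matches in capitals and TTCCTC being the match on the opposite strand.
Mrc1 (chr2:14229164-14229463, plus strand): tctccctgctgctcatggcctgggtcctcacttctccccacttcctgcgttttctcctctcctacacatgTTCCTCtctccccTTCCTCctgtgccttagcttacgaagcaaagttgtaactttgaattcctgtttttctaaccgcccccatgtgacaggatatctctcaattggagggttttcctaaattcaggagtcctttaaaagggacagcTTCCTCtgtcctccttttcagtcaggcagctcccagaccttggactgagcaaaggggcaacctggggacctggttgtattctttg
Trem2 (chr17:48346151-48346450, plus strand): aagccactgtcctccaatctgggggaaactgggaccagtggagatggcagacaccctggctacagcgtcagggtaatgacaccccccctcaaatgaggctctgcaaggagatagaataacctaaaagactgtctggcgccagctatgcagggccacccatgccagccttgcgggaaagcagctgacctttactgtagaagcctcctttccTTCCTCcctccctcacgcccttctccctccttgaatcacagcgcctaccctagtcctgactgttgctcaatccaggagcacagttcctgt
Cd68 (chr11:69666121-69666420, minus strand): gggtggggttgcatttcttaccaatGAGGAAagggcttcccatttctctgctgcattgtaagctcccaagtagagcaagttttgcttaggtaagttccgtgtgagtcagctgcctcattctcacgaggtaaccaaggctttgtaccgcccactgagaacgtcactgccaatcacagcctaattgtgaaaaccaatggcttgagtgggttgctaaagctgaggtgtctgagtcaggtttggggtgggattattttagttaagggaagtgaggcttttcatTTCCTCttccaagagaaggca
Lyz2 (chr10:117282223-117282522, minus strand): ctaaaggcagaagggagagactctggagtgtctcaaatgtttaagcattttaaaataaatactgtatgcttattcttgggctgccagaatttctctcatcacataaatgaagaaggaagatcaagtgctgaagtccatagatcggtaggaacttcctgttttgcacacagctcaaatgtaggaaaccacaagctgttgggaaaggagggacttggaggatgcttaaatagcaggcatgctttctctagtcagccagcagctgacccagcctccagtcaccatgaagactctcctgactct
A match describes the letters in the window only, and none of the tables measured binding.

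In the GENCODE vM21 annotation of GRCm38, Mrc1 lies on chromosome 2 from 14229392 to 14332057 and Laptm5 on chromosome 4 from 130913125 to 130936141, both on the plus strand. Clec7a (chromosome 6, 129461591 to 129472779), Cx3cr1 (chromosome 9, 119901616 to 120069879) and Cd68 (chromosome 11, 69664213 to 69666153) lie on the minus strand. Trem2 (48346401 to 48354147), Adgre1 (57358691 to 57483527) and Aif1 (35170991 to 35176068) are all on chromosome 17. Lyz2 (chromosome 10, 117277331 to 117282321) lies beside its paralog Lyz1 (117287797 to 117292868), with which it can share reads.

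Depth was high and similar between cultures, with a median of 1528320 counts per mESC, 1437410 per CPCC and 1397870 per CB cell. It differed more between pools, with medians of 1631470 and 1099810 in CPCC pools 1 and 2. In CB pools 1, 2 and 3 the medians were 804581, 1750780 and 1596810. A few libraries were nearly empty, down to 4 counts for a CB library. All 622 library names differed, and no pair of libraries in a table held the same values. The CPCC pools stood apart from each other. The summed level of 8 pluripotency markers was 5504 CPM (counts per 1000000 gene counts) in pool 1 and 1189 CPM in pool 2. Values are therefore given per pool as well. In every value below, CPM over a culture is the summed count of all its cells scaled to its summed gene counts, its 95% exact Poisson interval and the 95% Clopper-Pearson interval of a share cover counting error only, and reads carry no molecular identifiers.

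The members were abundant in CPCC, low in CB and, where listed, low in mESC apart from Laptm5 and Cd68. The receptor Csf1r stood at 0.200 CPM (0.155 to 0.252) in mESC, stood at 92.8 CPM (91.7 to 94.0) in CPCC and was 7.48 CPM (7.19 to 7.78) in CB. In mESC and CB, whose values are estimated, many cells held Csf1r values far below 1 count, such as 6.81e-35 CPM in an mESC and 6.30e-24 CPM in a CB cell. Mrc1, Cd68 and Laptm5 showed no such values. How these reads were assigned is not given, so the Csf1r levels of mESC and CB are uncertain to that extent. The mannose receptor Mrc1 stood at 0.0456 CPM in mESC (0.0260 to 0.0740), at 80.8 CPM in CPCC (79.8 to 81.9) and at 22.0 CPM in CB (21.5 to 22.5). Both therefore had CPCC highest and mESC lowest. Cx3cr1 was at 121 CPM in CPCC and 5.38 CPM in CB. Trem2 was at 89.0 CPM in CPCC and 4.83 CPM in CB. Adgre1, at 60.9 CPM in CPCC, was at 0.742 CPM in CB, the lowest CB level of the 10 genes before any correction for length. The 5 resident members were thus all higher in CPCC than in CB.

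The inflammatory members, which are not listed in mESC, were also higher in CPCC than in CB. Lyz2 was at 475 CPM in CPCC and 29.8 CPM in CB, and Clec7a at 38.3 CPM in CPCC and 2.17 CPM in CB. Of the general members, Aif1 was at 48.0 CPM in CPCC and 3.23 CPM in CB. Cd68 had 11.7 CPM in mESC, against 173 CPM in CPCC and 26.6 CPM in CB. Laptm5 was the exception among the members listed in mESC, its 35.8 CPM there lying between 171 CPM in CPCC and 26.3 CPM in CB. It was lower in CB than in mESC. Cd68 was higher in CB than in mESC, but 1 CB cell held 60.7% of its counts there. Without that cell Cd68 stood at 10.5 CPM in CB, below its mESC level of 11.7 CPM. Without its own top cell, mESC stood at 9.55 CPM.

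As log2 ratios of CPM + 1, all 4 members listed in both tables were at least 2-fold higher in CPCC than in mESC, where 13.4% of the 20272 genes listed in both were at least 2-fold higher and 6.38% at least 2-fold lower. The log2 ratios were 6.29 for Csf1r, 6.29 for Mrc1, 3.78 for Cd68 and 2.23 for Laptm5, with a median of 5.03 beside -0.02 over all genes. Between CB and mESC, 3 of the 4 were at least 2-fold higher in CB (Mrc1 4.46, Csf1r 2.82 and Cd68 1.12) and Laptm5 was at -0.43. Over all 19855 genes, 24.9% were at least 2-fold higher and 11.3% at least 2-fold lower in CB. The Cd68 ratio rested on 1 CB cell, since without the CB cell with most of its counts it was -0.14, and without the top cell of both cultures 0.12. Cd68 also no longer reached 2-fold there with TMM factors (0.96) or DESeq2 size factors (0.90), and these scalings moved the median of all genes from 0.13 to 0.04 and 0.01. The CB and CPCC ratios share the mESC sample, and the comparison of CB with CPCC shares both.

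All 10 members were at least 2-fold lower in CB than in CPCC, and 7.54% of the 20995 genes listed in both were, while 17.0% were at least 2-fold higher. The log2 ratios ran from -1.83 for Mrc1 to -5.15 for Adgre1, with a median of -3.58 beside 0.14 over all genes. Because the members were chosen on these counts, the shares over all genes are given as background only. In these summed values, fewer cells with a gene and less RNA per cell cannot be told apart, and the shares of cells follow.

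Cd68 and Laptm5 were found in many cells, and the other 8 members in few. In CPCC, the share of cells with 1 or more counts was 55.4% for Cd68 (47.7 to 62.9) and 41.1% for Laptm5 (33.8 to 48.8). It was 22.3% for Lyz2, 18.9% for Csf1r, 16.6% for Trem2, 16.0% for Aif1, 15.4% for Mrc1, 14.9% for Cx3cr1, 13.1% for Adgre1 and 8.0% for Clec7a (4.44 to 13.1). Among these 8, the intervals of neighbours in the order overlapped. In CB, Cd68 was detected in 15.1% of cells, Laptm5 in 11.6%, Csf1r in 10.8% and Lyz2 in 8.62%, and each of the other 6 in at most 4.31%. In mESC, Laptm5 was detected in 73.5% of cells (67.1 to 79.3), Cd68 in 35.3%, Csf1r in 2.33% and Mrc1 in 1.40%. Laptm5 was thus most widespread in the culture in which its level was not highest. With 10 or more counts it was still in 60.0% of mESC, against 24.0% of CPCC. Thinning each cell to 430000 counts, which left 193 mESC and 157 CPCC, gave 75.1% and 32.5%.

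**Figure D1:**
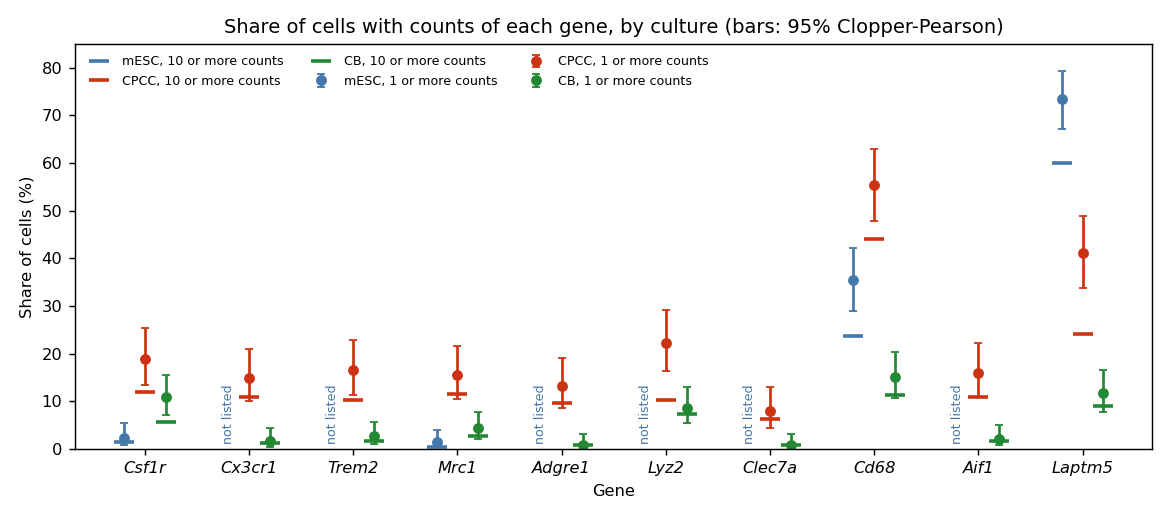
Share of cells (%) with 1 or more counts of each gene (points, with 95% Clopper-Pearson intervals) and with 10 or more counts (dashes), in 215 mESC, in CPCC (79 and 96 cells in 2 pools) and in 232 CB cells. Cd68 and Laptm5 are in 55.4% and 41.1% of CPCC and in 35.3% and 73.5% of mESC, while the other 8 genes stay at or below 22.3% of the cells of any culture.

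Within CPCC the members came almost wholly from pool 2. Csf1r was at 0.0899 CPM in pool 1, from 1 cell, and at 180 CPM in pool 2. Trem2 was at 0.0450 CPM against 172 CPM, Aif1 at 0.127 against 92.9 CPM and Mrc1 at 0.862 against 156 CPM. Without the pool 1 cell with the most counts of the gene, pool 1 had 0 CPM of Trem2, 0.00765 CPM of Aif1 and 0.325 CPM of Mrc1. Cx3cr1, Adgre1, Lyz2 and Clec7a had no count in any of the 79 pool 1 cells, which allows a share of up to 3.80% if 3 cells is taken as the limit, and up to 4.56% by the Clopper-Pearson interval. Against a floor of 3 counts over pool 1, Lyz2 was at least 40952-fold higher in pool 2 and Clec7a at least 3296-fold higher. Without the pool 2 cell with the most counts of the gene, these bounds were 24361-fold for Lyz2 (548 CPM in place of 920 CPM) and 2159-fold for Clec7a (48.5 CPM in place of 74.1 CPM). Only Cd68 and Laptm5 had levels of several CPM in pool 1, at 16.4 CPM (320 CPM in pool 2) and 6.28 CPM (326 CPM in pool 2). All 10 members were at least 2-fold higher in pool 2 on the CPM + 1 scale, beside 14.2% of the 23371 genes of the table. Cd68 was detected in 54.4% of the cells of pool 1 and 56.3% of those of pool 2, so its share of cells was close between pools while its level was not.

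In CB the members were uneven over the pools too. Pool 2 (78 cells) held no count of Cx3cr1, Trem2, Adgre1, Lyz2, Aif1 or Clec7a, which allows a share of up to 3.85% of cells for each by the limit of 3 cells, and up to 4.62% by the Clopper-Pearson interval. Mrc1 was at 9.48, 29.1 and 20.9 CPM in pools 1, 2 and 3, but each value rested on few cells. Without the cell with the most Mrc1 counts in each pool, it was at 0, 9.36 and 0.00708 CPM. Lyz2 in pools 1 and 3 was at 62.6 and 43.0 CPM, and at 26.2 and 22.2 CPM without the top cell of each. In mESC, Laptm5 was even over the pools, at 36.6, 33.4 and 38.1 CPM, and Cd68 was less so, at 3.96, 11.6 and 20.2 CPM, with 38.3% of its pool 3 counts in 1 cell.

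**Figure D2:**
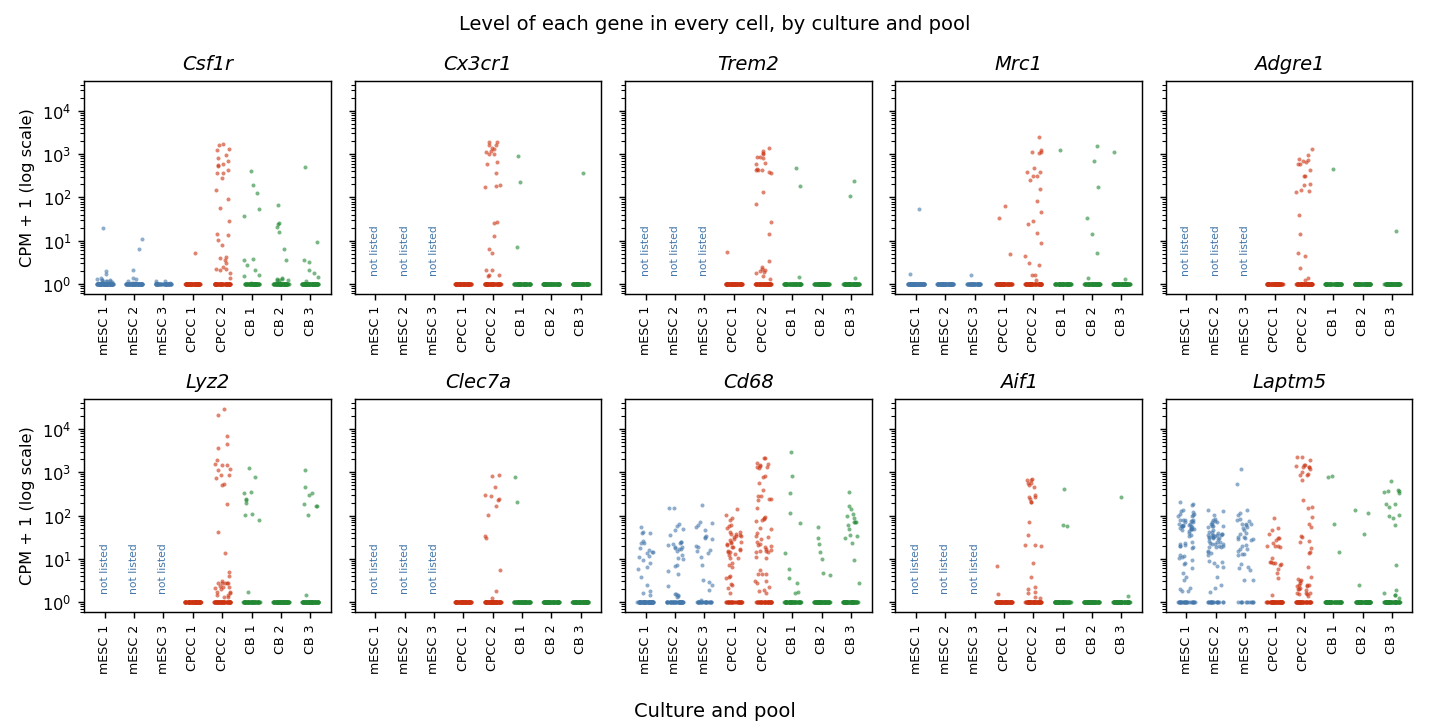
CPM + 1 on a log scale in every cell (points) for each of the 10 genes, by culture and pool. Most members show a group of high cells in CPCC pool 2 and a few high cells in CB, and Cd68 and Laptm5 also show many cells at intermediate levels in mESC and in both CPCC pools.

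Low levels in a culture often rested on 1 cell. The cell with the most counts held 83.3% of the Adgre1 counts of CB, and without it Adgre1 fell from 0.742 to 0.124 CPM. Without its top cell, CB Cd68 went from 26.6 to 10.5 CPM, Aif1 from 3.23 to 1.06 CPM, Csf1r from 7.48 to 3.42 CPM and Cx3cr1 from 5.38 to 2.51 CPM. CB Trem2 went from 4.83 to 2.30 CPM, Clec7a from 2.17 to 1.07 CPM and Mrc1 from 22.0 to 13.2 CPM in the same way. In CPCC only Lyz2 (475 to 281 CPM) and Clec7a (38.3 to 24.6 CPM) moved by over 1.5 times. In mESC, Csf1r went from 0.200 to 0.129 CPM and Mrc1, with 16.0 counts in all, from 0.0456 to 0.00570 CPM.

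The counts were gathered in a small set of cells. With 1 or more counts as detection, 25 CPCC cells (14.3% of all, 9.46 to 20.4) held at least 5 of the 10 members, and all 25 were in pool 2 (26.0% of its 96 cells). In CB 3 of 232 cells did (1.29%, 0.267 to 3.73). No mESC could reach 5, since 4 members are listed there, and none held all 4. With 10 or more counts as detection, 17 CPCC cells held at least 5 members, 9.71% of CPCC (5.76 to 15.1) and 17.7% of pool 2 (10.7 to 26.8). No CPCC cell held between 4 and 7 members at this level. The same 17 cells each held at least 8, and 10 of them held all 10. These 17 cells, picked by the members themselves, carried 98.4% of all member counts of CPCC. The share ran from 91.6% of Cd68 to above 99% of the counts of 7 members. The summed member level in them ran from 1056 CPM over a median of 9337 CPM to 35108 CPM.

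**Figure D3:**
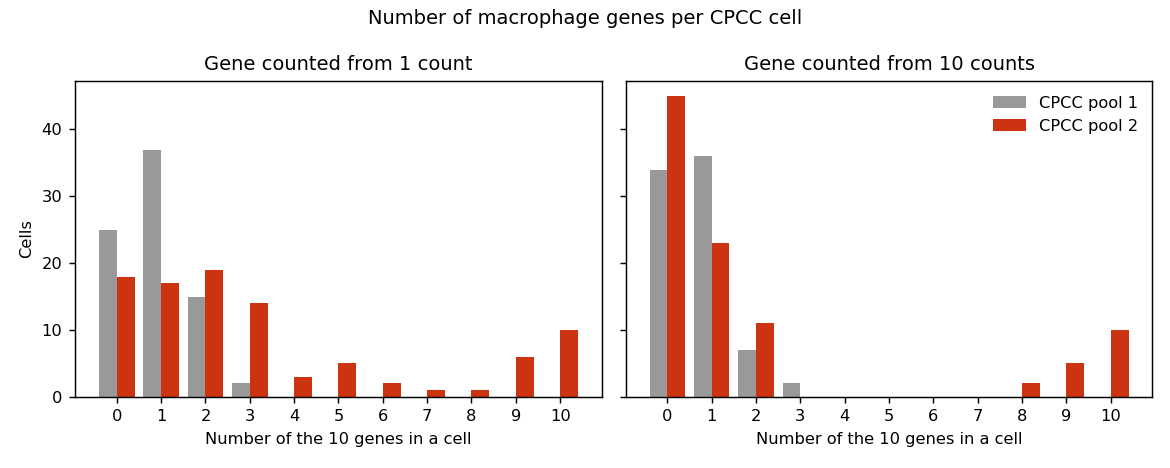
Number of cells (vertical axis) by how many of the 10 genes they held (horizontal axis), in CPCC pool 1 (grey) and pool 2 (red), with a gene counted from 1 count (left) or from 10 counts (right). From 10 counts, 17 pool 2 cells hold 8 to 10 genes, and no cell of either pool holds 4 to 7.

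The other 8 of the 25 cells, which the limit of 10 counts sets apart from the 17, had low counts of the members. Their summed member level was 17.4 to 86.9 CPM, with a median of 44.2 CPM, and none had 10 or more counts of more than 2 members. Of the 19 core macrophage genes listed for this work, none of which is a member, they held 0 to 7 at 10 or more counts (median 2), against 14 to 19 in the 17 cells. The remaining 150 CPCC cells also held 0 to 7 (median 2). Of the 8 cells 2 held 5 or more, and of the 150 cells 4 did. Low counts were widespread in pool 2 beyond them. Leaving out Cd68 and Laptm5, 43 of the 79 pool 2 cells outside the 17 held a count of at least 1 of the other 8 members, against 6 of the 79 pool 1 cells. Of the 84 detections behind this in pool 2, 73 had fewer than 10 counts. Lyz2, the member with the highest counts in the 17 cells, was in 22 of these 79 pool 2 cells, of which 1 held 10 or more counts. Passage of reads or free RNA between the libraries of a pool was not tested.

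In the 17 cells, 8 of the 10 members had at least 10 counts in every cell, while Mrc1 and Clec7a were missing from some. Mrc1 was at 0 in 3 cells and at 10 or more counts in 14. Clec7a was at 0 in 5 cells and at 10 or more counts in 11. Both were at 0 in 1 cell, and both under 10 counts in 2 cells. Lyz2 had the widest range in CPM, from 189 CPM over a median of 1448 CPM to 29233 CPM, and the top cell alone held 41.3% of its CPCC counts. Cx3cr1 ran from 11.8 to 1953 CPM with a median of 1018 CPM, Csf1r from 55.5 to 1706 CPM with a median of 568 CPM, and Trem2 from 67.7 to 1369 CPM with a median of 590 CPM. Adgre1 ran from 38.7 to 1296 CPM with a median of 422 CPM. Mrc1 reached 2537 CPM with a median of 314 CPM, and Clec7a reached 853 CPM with a median of 105 CPM. Cd68 (median 1248 CPM), Laptm5 (1299 CPM) and Aif1 (270 CPM) were in all 17 cells.

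Divided by the merged exon length of each gene, the median levels in the 17 cells followed the order Lyz2 (1100 CPM per kb), Cd68 (993), Laptm5 (343), Cx3cr1 (226), Aif1 (176), Adgre1 (130), Trem2 (119), Csf1r (98.3), Mrc1 (49.3) and Clec7a (39.6 CPM per kb). The interquartile ranges of all neighbours in this order overlapped. On this scale the inflammatory member Lyz2 was at the top and the inflammatory member Clec7a at the bottom, with the 5 resident members between them. The resident receptors lay within a range of 49.3 to 226 CPM per kb.

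**Figure D4:**
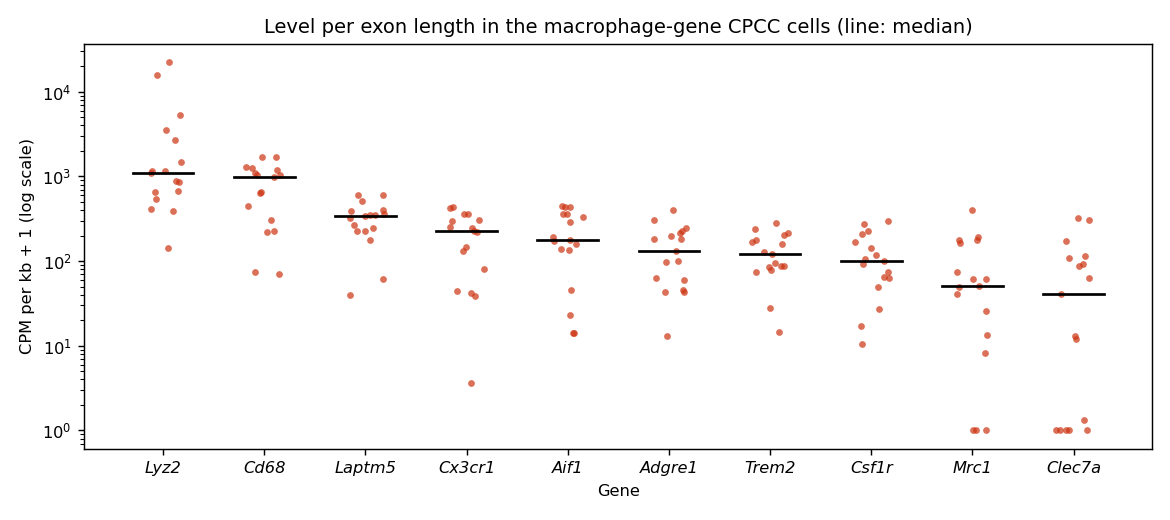
Level of each gene as CPM per kb of merged exon length, plus 1, on a log scale in each of the 17 CPCC cells with at least 5 members at 10 or more counts (points), with the median as a line. The medians fall from 1100 CPM per kb for Lyz2 to 39.6 CPM per kb for Clec7a, and Mrc1 and Clec7a have cells at 0.

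Lyz1, the paralog of Lyz2, was low in the same cells. Its counts were 0.167% to 3.68% of the summed Lyz1 and Lyz2 counts of a cell, with a median of 1.25%. Over CPCC it stood at 4.63 CPM beside 475 CPM for Lyz2. How reads shared by the paralogs were assigned is not given in the sources used here, so both values are uncertain to that extent.

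The 17 cells had a median of 7560 detected genes (4747 to 12485) and 1852810 counts. Of these cells, 3 also held at least 3 of 8 pluripotency markers at 10 or more counts, and had lower member levels. Their summed member level was 1056 to 3913 CPM, below the 4777 to 35108 CPM of the other 14, and they held 9343 to 12485 detected genes. Csf1r was at 55.5 to 150 CPM in the 3 cells and at 282 to 1706 CPM in the 14, and Laptm5 at 145 to 665 CPM against 846 to 2291 CPM. Cx3cr1 and Aif1 did not overlap between the 2 sets either, while Trem2, Adgre1, Lyz2, Cd68, Mrc1 and Clec7a did. The share of all genes that do not overlap between these 3 and 14 cells was not computed, so this is a description only. Whether such a chamber held more than 1 cell was not tested, because the tables do not give the inspection of the chambers. Without cells of over 10000 detected genes, 21 of the 25 and 15 of the 17 cells remained.

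For 37 of the 45 pairs of members, the share of cells with both was higher with 10 or more counts as detection than with 1 or more, and it was lower for 8 pairs, all of them pairs of Cd68. With 1 or more counts and over all CPCC cells, the cells with both genes were a median of 40.8% of the cells with either (14.4% to 63.3%), with a median phi coefficient of 0.52. With 10 or more counts as detection the median was 57.9%, thinned to 430000 counts 46.4%, and in pool 2 alone 44.8%. Adgre1 was shared most (median 52.9% over its pairs) and Cd68 (24.2%) and Laptm5 (29.5%) least. In pool 2 alone Adgre1 was again highest (54.2%), while Clec7a was lowest (39.4%), followed by Cd68 (40.9%) and Laptm5 (42.1%). The median over the pairs of Cd68 was 23.4% with 10 or more counts. Among the 28 pairs without Cd68 and Laptm5 the median was 47.4%, and 73.9% with 10 or more counts. At that level Adgre1 shared 17 of 18 cells with Trem2 and 17 of 18 cells with Lyz2, the closest pairs (94.4%). The other inflammatory member, Clec7a, shared 47.6% to 64.7% with the resident members at that level. With 1 or more counts, Adgre1 and Lyz2 shared 44.2%, below the 63.3% of Adgre1 and Cx3cr1. Libraries of a pool were sequenced together, cells differed in depth, and these shares are a description.

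**Figure D5:**
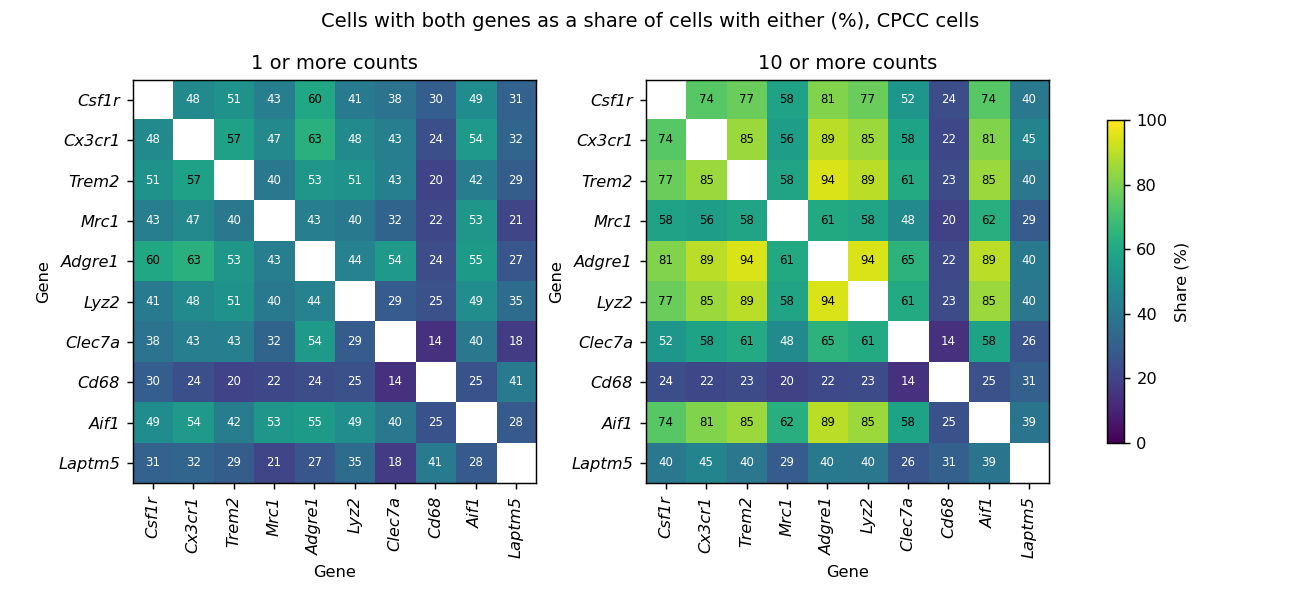
Cells with both genes as a share of cells with either (%), for each pair of the 10 genes over all CPCC cells, with detection at 1 or more counts (left) and 10 or more counts (right). Adgre1 pairs with Trem2 and with Lyz2 at 94.4% on the right, and the pairs with Cd68 and Laptm5 are mostly the lowest on both sides.

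The 5 resident members and Lyz2 were present at 10 or more counts in the 17 cells, apart from Mrc1 in 3 of them, while Clec7a was in fewer. These cells were picked by the members, so this presence follows in part from the choice. Over CPCC, the median share of cells was 15.4% for the 5 resident members (13.1% to 18.9%). The 2 inflammatory members, Lyz2 at 22.3% and Clec7a at 8.0%, lay on either side of that range, so that their median of 15.1% stands for neither. With 10 or more counts the medians were 10.9% and 8.29%. In the 17 cells the 5 resident members summed to 413 to 6468 CPM with a median of 3659 CPM. Outside the 17, the highest summed resident level in any cell was 60.7 CPM.

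Other genes of each kind, from lists drawn up for this work, were set beside the members in the 17 cells. Of the 23371 listed genes, 22.9% reached 10 or more counts in at least 9 of the 17 cells. Of 15 further inflammatory genes, 9 were listed and 0 reached this level, with 3 at 10 or more counts in none of the 17 cells. Tnf, a cytokine, was at 10 or more counts in 7 of the 17 cells and in 0 of the 158 others. The cytokine gene Il1a reached it in 3 of the 17, Il1b in 2 and the calprotectin gene S100a8 in 2. Ccr2 and Ly6c2, which mark inflammatory monocytes, were not listed in CPCC, nor was Nos2.

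Of 12 further genes of resident macrophages, 10 were listed and 4 reached 10 or more counts in at least 9 of the 17 cells, and of 9 genes known from microglia, the resident macrophages of the brain, 8 were listed and 6 did. Fcrls was in 17 of 17 cells at 10 or more counts (445 to 7041 CPM, median 3441 CPM) and in 1 of the 158 others. P2ry12, a purine receptor, was in 12 of the 17 cells, with a median of 191 CPM and up to 1276 CPM, and Gpr34 was in 15. Tmem119 was in 11 of the 17 but also in 20 of the 158 others, and Sall1 in 4 of the 17 and 60 of the others. Lyve1 was at 10 or more counts in 1 of the 17 cells and Timd4 in 2, while Cd163 and Vsig4 were not listed. The 4 resident genes at this level were Selenop, a selenium carrier (17 of the 17 cells and 37 of the 158 others), Gas6, a ligand of Mertk (14 and 43), the growth factor Igf1 (13 and 22) and the scavenger receptor Stab1 (12 and 1). F13a1, a clotting factor subunit, was in 8 of the 17 and 1 of the others.

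The general myeloid genes were nearly all present. Of 19 core macrophage genes, 18 reached 10 or more counts in at least 9 of the 17 cells, with a summed level of 3092 to 41658 CPM (median 27134 CPM) against a median of 141 CPM in the 158 others. The complement genes C1qa (median 2091 CPM), C1qb (4476 CPM) and C1qc (3799 CPM), the adaptors Tyrobp (1456 CPM) and Fcer1g (2372 CPM), and the leukocyte phosphatase Ptprc (336 CPM) were in all 17. Mertk, a receptor for dying cells, was the exception, in 8 of the 17. Lgmn, a lysosomal enzyme of many cell types, was also in 126 of the 158 others.

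Regulators followed. Of 10 myeloid regulators, 8 reached 10 or more counts in at least 9 of the 17 cells. Spi1 did so in 16 of 17, with a lowest value of 4.84 CPM, a median of 386 CPM and a highest of 675 CPM, and in 5 of the 158 others. Maf (median 118 CPM) was in 16 of 17, and Irf8, a regulator of monocyte and microglia development, in 13. Cebpa, needed for granulocyte development, was in 6 of 17 and Batf3 in 2.

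Ligands of the member receptors were found in the 17 cells to differing extents. Csf1 was at 26.4 CPM over CPCC, with 10 or more counts in 8 of the 17 cells (median 1.41 CPM) and in 47 of the 158 others. Il34, the other ligand of Csf1r, was at 1.28 CPM, in 0 of the 17 and 4 of the others. Cx3cl1, the ligand of Cx3cr1, was at 13.8 CPM, in 1 of the 17 and 30 of the others. Csf2 and Csf3 were not listed. Csf2rb, a receptor subunit for Csf2, was in 15 of the 17 and 1 of the others. Apoe, which encodes a lipid carrier that Trem2 can bind, was in all 17 cells at 1945 to 64516 CPM (median 11607 CPM) and in 133 of the 158 others. Downstream, the kinase Syk was in 13 of the 17 cells and the adaptor Card9, used by Clec7a, in 4.

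Markers of other blood cells were absent or not listed apart from a few genes. The 3 listed of 6 lymphoid markers had 10 or more counts in 0 of the 17 cells, 0 of 5 mast cell markers were listed, and the 3 listed of 9 erythroid markers were at 0 in all 17. Of 8 neutrophil markers 2 were listed, and the one found in these cells, Csf3r, which is also on the core macrophage list, was in 9 of the 17 (up to 324 CPM), while Ly6g was in none and Mpo and Elane were not listed. Of the megakaryocyte markers, Pf4, which some macrophages also express, was in 10 of the 17 (up to 1157 CPM) and Ppbp in 0. The summed fibroblast list had a median of 0.635 CPM in the 17 cells and the summed pluripotency list one of 0.834 CPM, though up to 4699 CPM in a cell. The summed smooth muscle list had a median of 91.7 CPM in the 17 cells and up to 5571 CPM in a cell, against a median of 141 CPM in the 158 others, and Acta2 had 10 or more counts in 11 of the 17. The endothelial list had a median of 0 CPM and reached 627 CPM in 1 cell, which held 5 of the 6 endothelial markers. The part of other cell types in the member levels was not tested.

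The 10 genes most like the members, by Pearson correlation of log2(CPM + 1) with the mean of the members over all CPCC cells and among 19716 genes detected in at least 5 cells, were Cd300c2 (0.98), Lilr4b (0.98), C1qa (0.98), Fcrls (0.97), Ptprc (0.97), Ctss (0.96), Rac2 (0.96), Ms4a6d (0.96), Lilrb4a (0.96) and Evi2b (0.96). Each was detected in all 17 cells, and had 10 or more counts in 16 or 17 of them and in at most 2 of the 158 others. Cd300c2 was at 671 CPM over the 17 cells and 0.0166 CPM over the others. The cells come from 2 pools and differ in depth, and the correlations rest on the contrast of the 17 cells with the rest. Both the 17 cells and these genes were picked by the members, so their presence in the 17 follows largely from the choice.

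In CB, 3 cells held at least 5 members at 10 or more counts, 2 in pool 1 and 1 in pool 3, and they carried 59.6% of the member counts of the culture. They held 8, 10 and 9 members, in the order used in the next sentences. Lyz2 was at 1282, 789 and 1134 CPM in them, Cx3cr1 at 225, 920 and 363 CPM, and Csf1r at 192, 400 and 514 CPM. Mrc1 was at 0, 1264 and 1119 CPM and Adgre1 at 0, 447 and 15.6 CPM, so the cell without Mrc1 was also the cell without Adgre1. Of the 18 core macrophage genes listed in CB, 16 had 10 or more counts in at least 2 of the 3 cells, where 18.1% of all listed genes did. Spi1 was at 87.4 to 389 CPM in all 3. Fibroblast markers were present in the same cells, at a summed 685 to 31424 CPM, with pool 1 at 13265 CPM and pool 3 at 13702 CPM over all cells. Of the 9 microglia genes 7 were listed in CB, and 3 of them had 10 or more counts in at least 2 of the 3 cells. Fcrls did so in all 3 (52.5 to 1718 CPM) and in 0 of the 229 others, Gpr34 in 2 of the 3 and 1 of the others, and Olfml3 in all 3 and 90 of the others. P2ry12 was not listed in CB, and Tmem119 had 10 or more counts in 0 of the 3 and in 40 of the 229 others.

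Outside these 3 cells, most CB cells with 10 or more counts of Mrc1, Lyz2 or Laptm5 held markers of another type, and those with Csf1r or Cd68 were spread over several types. Mrc1 had 10 or more counts in 4 other cells (32.8 to 1525 CPM), all in pool 2, and all 4 held at least 3 endothelial markers at 10 or more counts, as 23 of the 229 cells did. Lyz2 had 10 or more counts in 14 other cells (78.5 to 455 CPM, median 188 CPM), 7 in pool 1 and 7 in pool 3, and 12 of them held at least 3 fibroblast markers, as 113 of the 229 did. Laptm5 had 10 or more counts in 18 other cells (6.14 to 627 CPM), of which 15 held at least 3 of 6 epithelial markers, a list chosen after values were seen, as 82 of the 229 did. Csf1r had 10 or more counts in 10 other cells (5.48 to 122 CPM), of which 6 held epithelial, 3 fibroblast, 3 smooth muscle (as 26 of the 229 did) and 0 endothelial markers, and 1 held none of these. At least 3 core macrophage genes had 10 or more counts in 3 of the 10, as in 30 of the 229. The Csf1r counts of CB are estimated and uncertain as described above. Cd68 had 10 or more counts in 23 others, 13 with fibroblast and 12 with epithelial markers. Cx3cr1, Adgre1 and Clec7a had 10 or more counts in no other cell. None of these cells held more than 3 members at 10 or more counts.

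In mESC, nearly all cells held pluripotency markers, those with Laptm5 included. Laptm5 had 10 or more counts in 129 cells (5.06 to 1172 CPM, median 40.4 CPM), and all 129 held at least 3 pluripotency markers at 10 or more counts, close to the 203 of the 215 mESC that did. Cd68 did so in 51 cells (median 22.2 CPM), again all with pluripotency markers. The 3 cells with Csf1r at this level had 5.52 to 18.7 CPM, and the single cell with Mrc1 had 52.4 CPM. Of the 19 core macrophage genes 9 were listed in mESC. In CPCC outside the 17 cells, Cd68 had 10 or more counts in 60 cells (3.52 to 242 CPM, median 24.7 CPM) and Laptm5 in 25 (median 25.3 CPM), while the medians of the same genes in the 17 cells were 1248 and 1299 CPM.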

How the data were processed

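Cells of 3 samples, 1 per culture, were analysed from 1 table of gene values per culture with a column per cell. Per the labels and the submitters' processing notes, reads were aligned with STAR 2.7 to GRCm38, and the study's methods name Partek Flow as the software in which the gene count tables were made. The deposited CPCC table holds whole counts. The deposited mESC and CB tables hold estimated counts, of which 32.0% and 34.6% of the values above 0 are not whole, and these were rounded for thinning and counting intervals only. The planned analysis had assumed whole counts for all 3. How reads were assigned to genes, and whether by strand, is not given in the sources used here. Left out of the CPCC data were 208 rows without a gene, 23 rows whose symbols had become dates, and 2 columns that no label ties to a sample.

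Counts were summed and scaled to CPM, and ratios were log2 of (CPM + 1). Detection was 1 or more counts, with 10 or more as an alternative. Cells were thinned to 430000 counts for comparison of shares. No doublet caller was run. Chambers had been inspected under the microscope in the study, but no column is tied to that inspection. Alternatives were TMM factors (edgeR 4.0.16) and DESeq2 1.42.0 size factors in R 4.3.3, other pseudocounts, filters on low cells and genes, every cell weighted the same, and a left-out cell. The rest used Python 3.11.15 with numpy 2.4.6, pandas 2.3.3, scipy 1.17.1 and matplotlib 3.10.9. The scripts were tested on simulated data. With 1 sample per culture no test was made. Lengths are merged exons of GENCODE vM21.

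The members and the gene lists were chosen with earlier results of these data known. Genes named are the 10 members, genes of the lists, the 10 genes most like the members over CPCC cells, and Lyz1. The epithelial list, and the alternatives without cells of over 10000 detected genes and without the top cell of a pool or culture, were chosen after seeing the data.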

Additional observations from a re-analysis of the deposited data

How the results depend on the processing

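Of 180 alternative values of the members' ratios between cultures 1 reversed, Cd68 in CB over mESC, which went from 1.12 to -0.14 without the CB cell with most of its counts. That ratio was 0.12 without the top cell of both cultures, and fell short of 2-fold with TMM factors (0.96), DESeq2 size factors (0.90) and a pseudocount of 10 CPM (0.75), as Csf1r did with the last (0.78 in place of 2.82). No other 2-fold difference of a member between cultures was lost under these alternatives. Of 54 alternative values of the sums, medians and counts of cells none reversed, 24 stayed within the counting interval of the value as reported (for ratios, shares and levels) or within 1.5 times it (for counts of cells), and 30 moved beyond it. The summed level of the listed members (mESC 47.7, CPCC 1350, CB 129 CPM) was 46.4, 1122 and 119 CPM without the cell with the highest summed member level, and 48.6, 1061 and 124.0 CPM with every cell weighted the same. It was 50.6, 1448 and 121 CPM with TMM factors, and 51.9, 1435 and 119 CPM with DESeq2 size factors. The median log2 ratio of CPCC over mESC (5.03) was 5.09 with TMM factors, 4.54 with cells weighted the same, and 6.07 and 3.13 with pseudocounts of 0.1 and 10 CPM. That of CB over mESC (1.97) was 1.84 with TMM, 1.80 with DESeq2 factors, and 2.92 and 0.76 with these pseudocounts. That of CB over CPCC (-3.58) was -3.74 with TMM, -3.75 with DESeq2 factors, -3.06 with cells weighted the same, and -3.92 and -2.44 with the pseudocounts. With 10 or more counts as detection, the median share of cells over the members went from 18.8% to 12.6% in mESC and from 16.3% to 10.9% in CPCC, that over the inflammatory members in CPCC from 15.1% to 8.29%, and the median shared detection from 40.8% to 57.9%. With at least 3 in place of 5 members, 44 in place of 25 CPCC cells were counted. The cause of these moves beyond the setting itself was not tested.

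No paired analysis was possible because the labels give 1 sample per culture, no replicate numbers stand in the columns, and cultures were not tested against each other. Since no column names its replicate, the spread between replicate cultures could not be measured, and pools cannot be told apart from clones, dishes or capture runs. The number of cells allowed a share of up to 4.56% (Clopper-Pearson) for a gene with no count in CPCC pool 1, and the intervals cover counting error only.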
